A study of Mus musculus with 9 samples.

Results

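The genes described here are those that keratinocytes switch on late in differentiation and that build the cornified envelope. They were chosen by name: every row of the gene table whose symbol starts with Sprr or Lce, and a list of further genes of the upper epidermis, of which *Flg* and *Krt2* have no row. This gave 60 of the 19481 genes in the table. The choice was partly made on these data, because some of the genes had been seen at a high count in 1 library, control replicate 1. That library is therefore described without a test, and comparisons were tested in the other 8 tumors.

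The RNA came from 9 tumors of KLN205, a mouse line of squamous lung carcinoma that was grown under the skin of immunocompetent female DBA/2 mice of 6 to 8 weeks. The cells of all 9 carried a SMART inducible shRNA, which was shControl in 3 tumors (control) and targeted *Tmprss11b*, a transmembrane serine protease, in the others, as sh2 in 3 and sh3 in 3. All mice drank doxycycline water once the average tumor volume had reached 100 mm3, and the tumors were taken on day 50. KLN205 is 1 line, the hairpins act in the grafted cells, and the tissue chunks used for RNA also hold host cells. *Tmprss11b*, listed as *Tmprss11bnl*, had 18, 51 and 42 counts in the control tumors, 7, 2 and 5 with sh2 and 10, 4 and 5 with sh3, so that no shRNA tumor overlapped the control tumors. Total counts per tumor ran from 20653219 to 24047784, and 3 counts, the limit that a count of 0 allows, stood for 0.125 to 0.145 CPM, the count per 1000000 counts of a library. These limits cover counting error only.

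The outer layer of skin is made of dead keratinocytes in which the plasma membrane has been replaced by a shell of crosslinked protein, the cornified envelope. Loricrin (*Lor*), involucrin (*Ivl*), the small proline-rich proteins (Sprr) and the late cornified envelope proteins (Lce) are its building blocks, transglutaminases join them, and kallikreins later cut the corneodesmosomes that hold the dead cells together. Squamous carcinomas can form such layers too, as keratin pearls, while basal keratinocytes, which carry *Krt5* and *Krt14*, hold most of these genes silent.

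Of the 60 genes, 39 lie on chromosome 3 between 92012477 and 93399442 (GRCm38, the build of the mm10 alignments), a stretch of 1387 kb from *Pglyrp3* to *Rptn* known as the epidermal differentiation complex. Chromosome 7 holds 7 more, chromosome 11 holds 3, chromosomes 15 and 18 hold 2 each, and 7 are single genes on other chromosomes. For 52 of the 60 the RefSeq table of promoters has an entry. Its 250 bases before the start were searched for TGANTCA, the site of AP-1 factors, and TATAAA, the core of a TATA box. They were also searched for GGGNGTGG, a Klf4-type site, and AACCNGTT, a grainyhead-type site. Both strands were covered for all but AACCNGTT, which was searched on the strand of the gene only. TGANTCA was found in 15 of the 52 genes, and in 30.4% of their 56 entries against 6.75% of all 32851 entries. TATAAA was found in 19 of the 52, in 33.9% of their entries against 12.4% of all. GGGNGTGG was in 4 genes, 7.14% of entries against 15.9% of all. On the strand of the gene AACCNGTT was in none, against 0.928% of all. These are matches of letters and not sites shown to be bound, and neighboring family members with like promoters are not independent.

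The 150 bases before the start are shown for 5 genes that the values below turn on, 5′ to 3′ on the strand of the gene, with TGANTCA and TATAAA in capitals. *Krtdap*, *Lor*, *Sprr1a* and *Sbsn* were far higher in control replicate 1 and carry TGANTCA, and *Lypd3*, which was not, has neither motif in this window. They were picked as examples with and without the motif and do not stand for the list. *Calm4*, *Hrnr*, *Krt10* and *Lce1m*, which were also far higher in control replicate 1, hold no TGANTCA in their 250 bases. No Lce gene was among the 15 genes in which TGANTCA was found. The stretches are chr7:30787755-30787904 (*Krtdap*, plus strand), chr3:92083143-92083292 (*Lor*, minus strand), chr3:92485882-92486031 (*Sprr1a*, minus strand), chr7:30751321-30751470 (*Sbsn*, plus strand) and chr7:24636420-24636569 (*Lypd3*, plus strand), all in GRCm38.p6 from RefSeq.
Krtdap: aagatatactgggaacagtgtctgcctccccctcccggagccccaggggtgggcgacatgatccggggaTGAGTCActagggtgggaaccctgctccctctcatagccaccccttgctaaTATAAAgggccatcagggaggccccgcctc
Lor: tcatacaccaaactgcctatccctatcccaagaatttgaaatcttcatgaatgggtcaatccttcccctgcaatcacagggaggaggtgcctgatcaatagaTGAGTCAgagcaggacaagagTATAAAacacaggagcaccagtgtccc
Sprr1a: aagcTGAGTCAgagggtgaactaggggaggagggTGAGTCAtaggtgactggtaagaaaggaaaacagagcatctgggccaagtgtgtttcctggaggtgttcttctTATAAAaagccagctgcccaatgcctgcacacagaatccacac
Sbsn: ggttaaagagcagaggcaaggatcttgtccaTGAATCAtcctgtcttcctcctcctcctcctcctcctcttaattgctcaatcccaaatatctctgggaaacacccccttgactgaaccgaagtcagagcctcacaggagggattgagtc
Lypd3: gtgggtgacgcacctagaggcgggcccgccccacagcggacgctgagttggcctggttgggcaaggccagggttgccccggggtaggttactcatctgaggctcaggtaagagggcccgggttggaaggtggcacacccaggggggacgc
Counted from the start site, TGANTCA began at -81 in *Krtdap*, -48 in *Lor*, -119 in *Sbsn* and at both -146 and -116 in *Sprr1a*. TATAAA began at -30 in *Krtdap*, -27 in *Lor* and -43 in *Sprr1a*, and it was not found in the printed window of *Sbsn*.

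Control replicate 1, whose library is named in another form than the other 8 in the labels, held the highest count of nearly every gene of the list. Of the 44 genes with at least 10 counts in a tumor, 42 were highest there, where 9.09% of the 15575 genes of the table with such a count were. In 31 of the 44 the CPM in this tumor was at least 10 times that of the next tumor, and 0.43% of those 15575 genes reached that, 67 in number. Since the list was partly chosen on this tumor, these counts describe it and test nothing. The exceptions were *Aloxe3*, highest in sh3 replicate 1, and *Pglyrp3*, highest in control replicate 2. In the other 8 tumors 16 of the 60 genes had no count at all, 35 had at most 3 counts in each, and 8 had at least 10 counts in each. In no other tumor did any gene of the list reach 10 times the next, with control replicate 1 among the tumors compared. For the 58 of the 60 genes that were highest in control replicate 1 this was fixed in advance. Outside the list, 19 genes reached it in sh2 replicate 2.

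**Figure D1:**
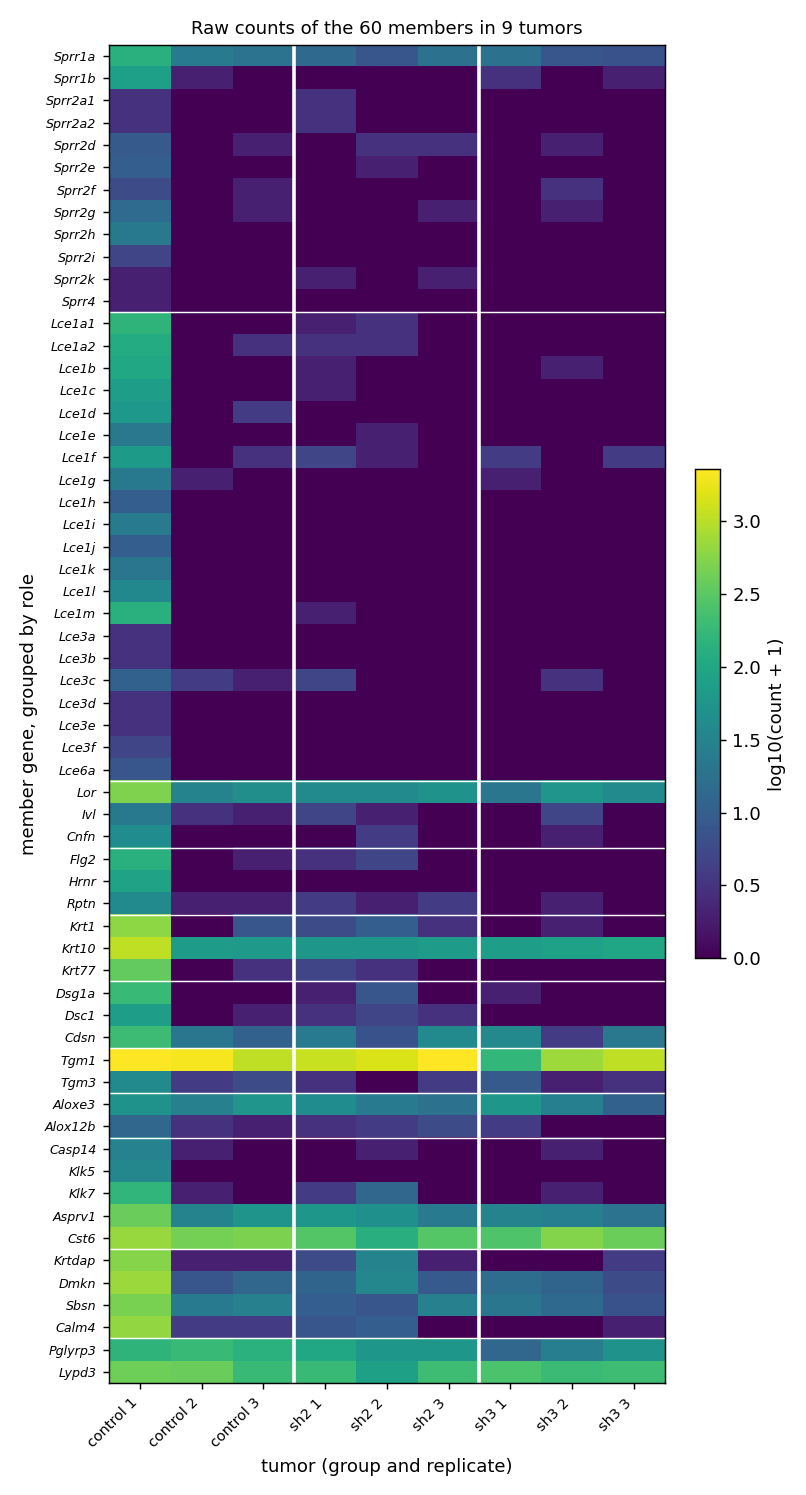
Raw counts of the 60 genes (rows, grouped by role, white lines between roles) in the 9 tumors (columns), colored by log10 of the count plus 1. The first column, control replicate 1, is the highest in 42 of the 44 rows that reach 10 counts. *Tgm1*, *Cst6* and *Lypd3*, in the lower part, have at least 80 counts in all 9 columns, while *Pglyrp3* falls to 12 counts in sh3 replicate 1.

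Among the structural proteins of the envelope, the Lce genes were counted almost only in control replicate 1. Their 21 genes together had 871 counts there, 4 and 8 in control replicates 2 and 3, 14, 6 and 0 with sh2, and 4, 3 and 3 with sh3. *Lce1a1* led with 149 counts, against at most 2 elsewhere, and *Lce1m* followed with 132 against at most 1. *Lce1l* had 36 counts and none in the other 8 tumors. Of the Lce3 genes, which in skin are tied to injury and repair, *Lce3c* alone reached 10 counts. Reads of this family can be hard to place: between 9.12% and 27.1% of the 50-base words of the Lce1 transcripts, *Lce1m* aside, are also in another gene, and 12.1% to 49.3% for Lce3, so the split among single Lce genes is uncertain and the family total is firmer.

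The Sprr genes, which act as flexible crosslinkers, gave 278 counts in control replicate 1 and between 7 and 24 in each other tumor. *Sprr1a*, the most counted of them, had 132 counts in control replicate 1, 23 and 18 in control replicates 2 and 3, 13, 7 and 17 with sh2, and 17, 7 and 6 with sh3. *Sprr1b* had 78 counts in control replicate 1 and at most 2 elsewhere, and *Sprr2h* had 22 and none elsewhere. Of the Sprr2 genes, *Sprr2a1* and *Sprr2a2* share 96.3% and 96.5% of their 50-base words and had the same counts in all 9 tumors, so they cannot be told apart here.

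*Lor*, the main protein of the envelope by mass, was present in every tumor. It had 502 counts in control replicate 1, 31 and 44 in control replicates 2 and 3, 39, 39 and 50 with sh2, and 20, 55 and 39 with sh3, and control replicate 1 was 7.65-fold above the next tumor in CPM. *Ivl*, which lines the membrane first, had 22 counts against at most 4, and *Cnfn*, cornifelin, had 42 against at most 3. The filaggrin-related proteins gave 136 counts of *Flg2*, 84 of *Hrnr* and 39 of *Rptn* in control replicate 1. In the other 8 tumors *Flg2* had at most 4 counts and *Hrnr* none.

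The keratins of the suprabasal layers behaved unequally. *Krt10* had 1073 counts in control replicate 1, 68 and 63 in control replicates 2 and 3, 58, 59 and 69 with sh2, and 75, 83 and 92 with sh3. Its partner *Krt1* had 605 counts in control replicate 1, 0 and 7 in control replicates 2 and 3, 5, 9 and 2 with sh2, and 0, 1 and 0 with sh3, and *Krt77*, a further type II keratin, had 351 against at most 4. In the 8 tumors *Krt10* was thus counted while *Krt1* was at or near 0, and in control replicate 1 both were high.

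The corneodesmosome genes also stood highest in control replicate 1. *Dsg1a*, the desmosomal cadherin of the upper layers, had 185 counts there and 7 in sh2 replicate 2, the next tumor, and 35% of its 50-base words are shared with *Dsg1b*. *Dsc1*, its partner, had 76 against at most 4. *Cdsn*, corneodesmosin, had 198 counts in control replicate 1, 20 and 10 in control replicates 2 and 3, 24, 6 and 39 with sh2, and 37, 3 and 21 with sh3, a 4.93-fold gap to the next tumor.

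**Figure D2:**
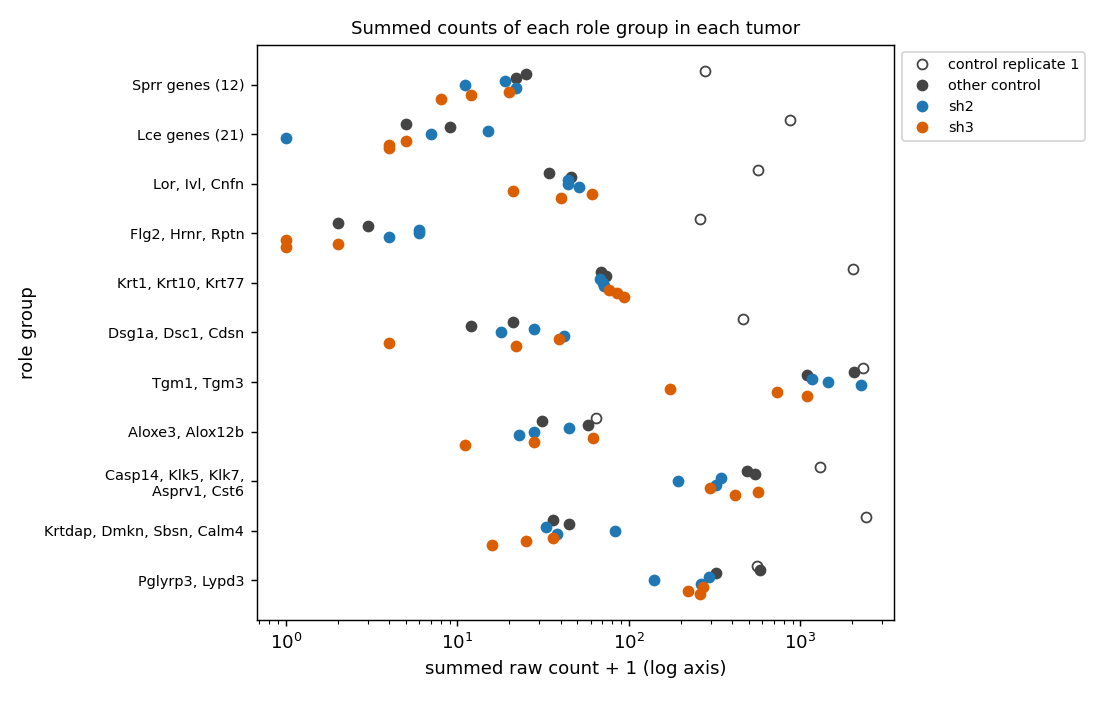
Summed raw count plus 1 (log axis) of each group of genes by role in each tumor; open circles are control replicate 1, black points the other control tumors, blue points sh2 and orange points sh3. The open circle stands clearly to the right of all other points for 8 of the 11 groups, up to 871 counts for Lce against 0 to 14, and within or next to the other points for the groups led by *Tgm1*, *Aloxe3* and *Lypd3*.

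The enzymes that act on the envelope split into both patterns. *Tgm1*, the membrane-bound transglutaminase, had 2268 counts in control replicate 1, 2058 and 1093 in control replicates 2 and 3, 1168, 1447 and 2245 with sh2, and 164, 731 and 1085 with sh3. Control replicate 1 was 1.03-fold above the next tumor, while sh3 replicate 1 stood lowest. *Tgm3*, the soluble transglutaminase, had 39 counts in control replicate 1 and at most 8 elsewhere. *Aloxe3*, a lipoxygenase that prepares lipids for binding to the envelope, had 51 counts in control replicate 1, 28 and 56 in control replicates 2 and 3, 42, 24 and 17 with sh2, and 58, 27 and 10 with sh3, whereas *Alox12b*, which acts in the step before it, had 12 against at most 5.

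Of the proteases, *Klk7* had 161 counts in control replicate 1 and 12 in sh2 replicate 2, with at most 3 in the rest, and *Klk5*, which activates it, had 35 and none in the other 8 tumors. *Casp14*, which processes filaggrin, had 30 against at most 1. *Asprv1*, another filaggrin-processing protease, was present in all tumors, with 383 counts in control replicate 1, 31 and 54 in control replicates 2 and 3, 59, 48 and 24 with sh2, and 31, 27 and 18 with sh3. *Cst6*, the cystatin that inhibits cathepsins of the cornifying layers, had 688 counts in control replicate 1, 457 and 491 in control replicates 2 and 3, 283, 131 and 297 with sh2, and 266, 536 and 394 with sh3.

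The secreted proteins and the calmodulin-like protein of the suprabasal layers gave the largest group total in control replicate 1, 2394 counts against 15 to 82 elsewhere. *Krtdap* had 565 counts there and 31 in sh2 replicate 2, and *Calm4* had 646 and at most 9. *Dmkn*, dermokine, had 702 counts in control replicate 1, 7 and 12 in control replicates 2 and 3, 11, 35 and 8 with sh2, and 15, 11 and 5 with sh3. *Sbsn*, suprabasin, had 481 counts in control replicate 1, 24 and 28 in control replicates 2 and 3, 9, 7 and 28 with sh2, and 20, 13 and 6 with sh3, and 6.96% of its 50-base words are also in another gene, mostly *Tmem147os*. Among the 8 tumors, sh2 replicate 2 was highest in *Krtdap* and *Dmkn* but not in *Sbsn*.

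The last pair was not raised in control replicate 1. *Pglyrp3*, a peptidoglycan-binding antibacterial protein encoded at the edge of the complex, had 150 counts in control replicate 1, 189 and 139 in control replicates 2 and 3, 102, 59 and 59 with sh2, and 12, 26 and 52 with sh3. Every control tumor was above every sh2 tumor, and every sh2 tumor above every sh3 tumor. The share of all genes with this full order was not counted. Without control replicate 1, every sh2 tumor was below both control tumors in 11% of all genes tested. Every sh3 tumor was below every sh2 tumor in 4.61%. *Lypd3*, a GPI-anchored protein of suprabasal and wounded epithelium, had 408 counts in control replicate 1, 392 and 182 in control replicates 2 and 3, 189, 80 and 202 with sh2, and 256, 193 and 208 with sh3.

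On the length-corrected TPM scale the order of the genes differed between control replicate 1 and the rest. In that tumor *Krtdap* led with 123 TPM, followed by *Tgm1* with 74.9, *Calm4* with 70.1 and *Krt10* with 50.9. In the other 8 tumors the highest medians were 38.1 TPM for *Tgm1*, 11.6 for *Lypd3*, 8.13 for *Cst6*, 5.38 for *Pglyrp3*, 3.17 for *Krt10* and 2.27 for *Lor*, and *Krtdap* and *Calm4* had medians of 0.218 and 0.209. In bulk tissue, fewer cells of a type and less RNA of a gene per cell cannot be told apart.

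The further genes that were at least 10 times higher in control replicate 1 numbered 36, and those named next were chosen after their values had been seen. Within the chromosome 3 stretch, 3 of the 6 other genes of the table did so, *Kprp* with 65 counts against at most 3, *Crct1* with 73 against at most 4 and *2310050C09Rik* with 79 against at most 1, beside 18 of the 39 listed genes. *Spink5*, the inhibitor of *Klk5* and *Klk7*, had 115 counts against at most 2, and *Sdr9c7*, an enzyme of the lipid envelope, had 21 and none elsewhere. Of the 10 genes listed for basal keratinocytes, *Krt5* had 2052 counts against 2 to 104 and *Col17a1*, a hemidesmosome collagen, 339 against 3 to 12. *Dsc3*, the desmocollin of the lower layers, had 226 against at most 17. The summed level of the basal list was 1333 CPM in this tumor and 626 to 1247 CPM in the others, because *Dst* and *Itgb4*, its most abundant genes, were high in all: *Itgb4* had 8946 counts against 2620 to 9297.

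Of the 11 listed markers of squamous carcinoma, 7 were highest in control replicate 1. All 11 had a count in each of the 9 tumors, though *Krt6b* fell to 1 count and *Krt5* to 2. The 11 together summed to 1076 CPM in control replicate 1 and 172 to 728 CPM in the others. *Krt14* had 9148 counts in control replicate 1 and 266 to 4294 elsewhere, *Trp63*, the master regulator of squamous epithelium, 163 against 8 to 109, and *Sox2*, a lineage factor of lung squamous carcinoma, 615 against 198 to 654. *Krt6b*, a keratin of stressed epithelium, had 543 counts against 1 to 30, and *Krt16*, a keratin of the same kind, 1089 against 29 to 432. *Krt5*, also a defining marker, had at most 20 counts in 6 of the 8 other tumors.

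The summed levels of markers of other structures of skin lay within the range of the other 8 tumors in control replicate 1. The 17 measured hair follicle genes summed to 23.7 CPM in control replicate 1 and 16.4 to 30.5 CPM in the other tumors. Most of that sum came from *Tchh*, which had 430 counts against 279 to 485. None of the 17 reached 10 times the next tumor there with at least 10 counts, and *Krt25*, *Krt31*, *Krt33a*, *Krt85* and *Dsg4* were at 0. Yet 4 of the 17 were highest there, among them *Hoxc13* with 18 counts against at most 15 and *Msx2* with 3 against none. *Krt75*, a keratin outside these 17 genes and named after its value was seen, had 34 counts there against at most 1. The 12 sebaceous gland genes summed to 509 CPM against 447 to 666, of which *Plin2* gave 275 CPM and *Soat1* 111 CPM, genes that many other cells use. The 6 melanocyte genes summed to 13.9 CPM against 8.83 to 16.7, of which *Mitf* alone gave 12.9 CPM, so that neither sum shows the rarer markers. Of these, some were highest in control replicate 1 at low counts: *Awat1* had 6 counts against at most 2 and *Far2* 10 against at most 6 in the sebaceous list, and *Dct* had 7 against at most 1 and *Pmel* 15 against at most 11 in the melanocyte list. These 4, and *Hoxc13* and *Msx2* above, were named after their values had been seen. Skeletal muscle, which lies beneath mouse skin, gave 380 CPM over 10 genes in control replicate 1 and 4.25 to 3403 CPM in the others, with the highest sum in control replicate 3, where the envelope genes were low. The 23 regulators of epidermal differentiation summed to 997 CPM against 751 to 1003, and none reached 10 times the next tumor. *Klf4*, a driver of barrier formation, had 1327 counts against 730 to 1773. Some basal keratinocyte and squamous carcinoma genes, among them *Krt5*, *Krt14*, *Krt16* and *Krt6b*, were thus highest in the same tumor as the list. So were *Krt75* and the low counts of *Dct*, *Pmel*, *Awat1*, *Far2*, *Hoxc13* and *Msx2*. The part of all these genes in the result was not tested.

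**Figure D3:**
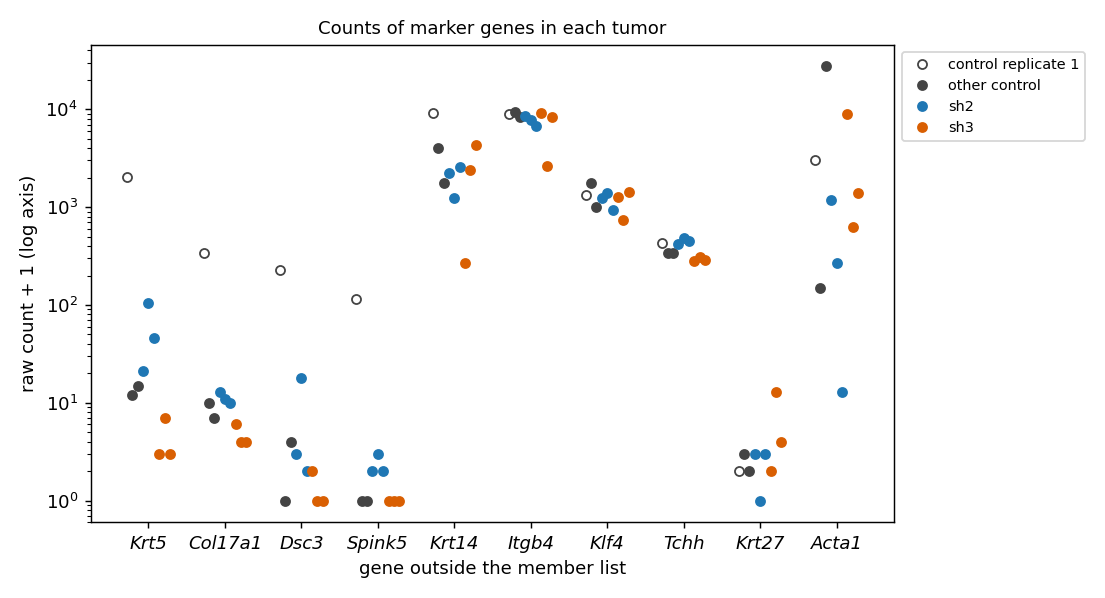
Raw count plus 1 (log axis) of genes outside the list in each tumor; open circles are control replicate 1, black points the other control tumors, blue points sh2 and orange points sh3. *Krt5*, *Col17a1*, *Dsc3* and *Spink5* are far higher in control replicate 1, while *Itgb4*, *Klf4*, the hair follicle genes *Tchh* and *Krt27* and the muscle gene *Acta1* are not.

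Whether depletion of *Tmprss11b* changed these genes was asked in the 8 tumors that had no part in choosing them, with 2 control tumors. The filter on low counts left 12 genes of the list, *Sprr1a*, *Lor*, *Krt10*, *Cdsn*, *Tgm1*, *Aloxe3*, *Asprv1*, *Cst6*, *Dmkn*, *Sbsn*, *Pglyrp3* and *Lypd3*, and removed 48. None of the 12 passed an FDR of 0.05 in any comparison by edgeR's quasi-likelihood test, and 0% of the 14908 genes tested did. At an unadjusted P under 0.05, 418 of all genes passed in sh2 against control, 563 in sh3 against control and 860 in sh3 against sh2. DESeq2 called 1, 4 and 43 genes in these comparisons and edgeR's likelihood ratio test 2, 1 and 0, none of them in the list.

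With sh2, *Cst6* and *Pglyrp3* had the lowest levels against the control. *Cst6* was at 19.5 ± 0.838 CPM in the control (mean ± SD, n = 2) and 10.2 ± 3.37 CPM with sh2 (n = 3), a log2 fold change of -0.93 ± 0.38 (SE) and an edgeR FDR of 0.9993. It was the only gene of the 12 below an unadjusted P of 0.05, where 1.65% of all genes were lower and 1.15% higher at that level. *Pglyrp3* was at 6.75 ± 1.51 CPM in the control and 3.20 ± 0.967 CPM with sh2, a log2 fold change of -1.07 ± 0.54. In *Sprr1a*, *Cst6* and *Pglyrp3* every sh2 tumor was below both control tumors, as in 11% of all genes, and in none of the 12 was every sh2 tumor above, as in 12.1% of all genes. The log2 fold change was below 0 in 6 of the 12 (48.4% of all genes), with a median of -0.24 against 0.01 for all genes.

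With sh3, *Pglyrp3* differed most. It was at 1.37 ± 0.835 CPM (n = 3) against 6.75 ± 1.51 CPM in the control (n = 2), a log2 fold change of -2.31 ± 0.56, which is 4.96-fold lower, with an edgeR FDR of 0.9999. It was the only gene of the 12 below an unadjusted P of 0.05, where 1.87% of all genes were lower and 1.91% higher at that level. *Tgm1* was at 30.4 ± 20.3 CPM with sh3 and 64.9 ± 28.6 CPM in the control, a log2 fold change of -1.11 ± 0.65, and it ran from -1.58 without sh3 replicate 3 to -0.56 without control replicate 2, with -1.52 without control replicate 3 and -0.64 without sh3 replicate 1. Its highest sh3 tumor, at 46.4 CPM, lay above its lower control tumor, at 44.7 CPM. *Krt10* was at 3.87 ± 0.379 CPM with sh3 and 2.70 ± 0.166 CPM in the control, a log2 fold change of 0.51 ± 0.30, and each sh3 tumor was above both control tumors, as in 10.7% of all genes. *Sbsn* and *Pglyrp3* were lower in every sh3 tumor than in both control tumors, as in 8.19% of all genes. The log2 fold change was below 0 in 8 of the 12 (47.9% of all genes), with a median of -0.23 against 0.02 for all genes.

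**Figure D4:**
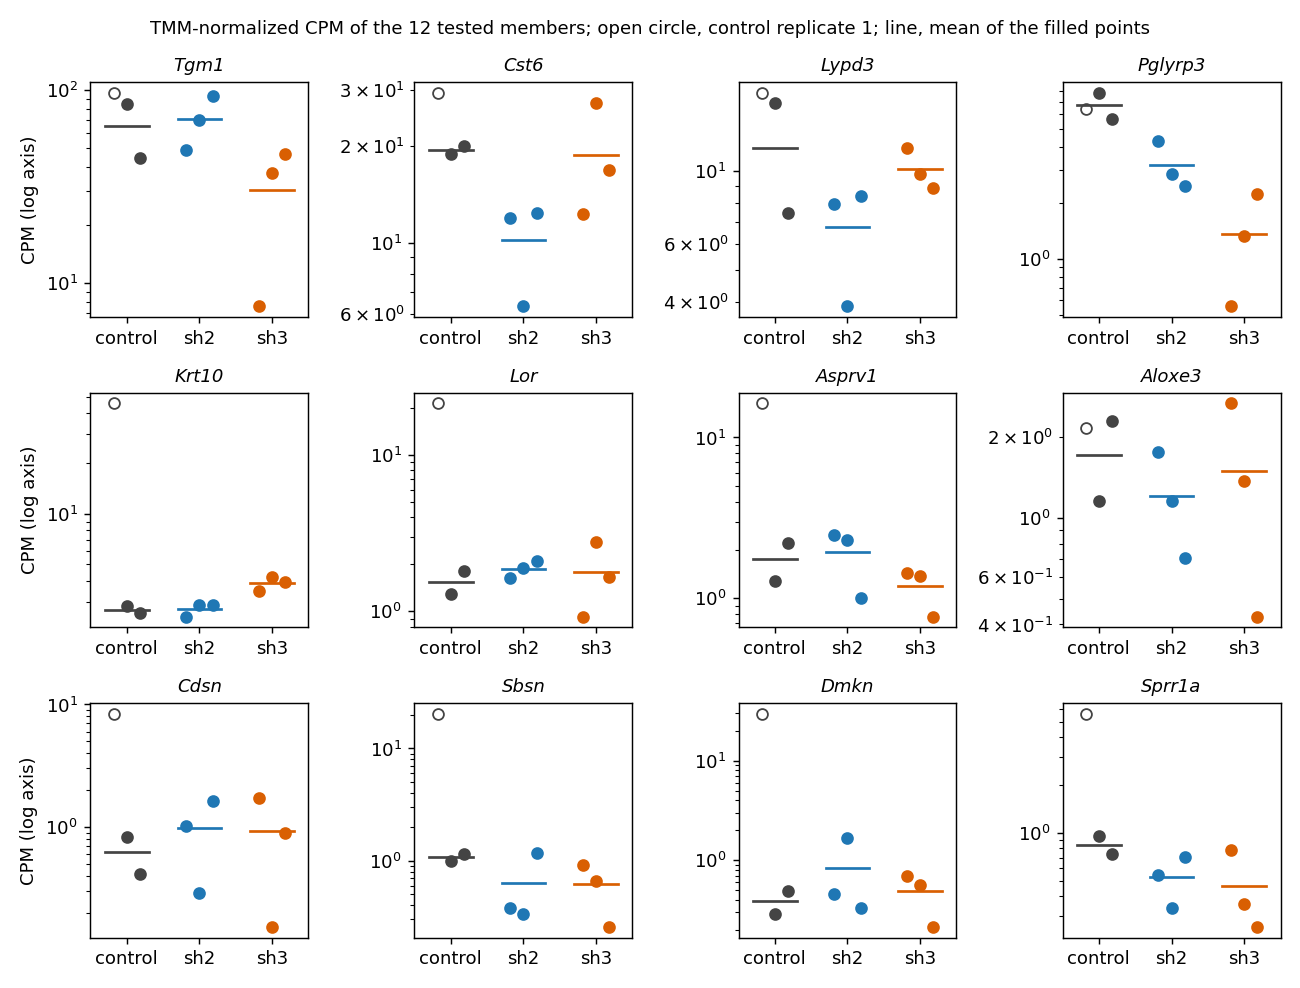
CPM after TMM normalization (log axis) of the 12 tested genes in the control, sh2 and sh3 tumors; each point is a tumor, the open circle is control replicate 1, and lines are means of the filled points. *Pglyrp3* steps down from control to sh2 to sh3, *Krt10* is at 3.47 to 4.22 CPM with sh3 against 2.44 to 2.88 in the other filled points, and the open circle stands alone at the top for *Krt10*, *Lor*, *Asprv1*, *Cdsn*, *Sbsn*, *Dmkn* and *Sprr1a*.

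The hairpins were also compared with each other, in sh3 against sh2, where no library left out of the test plays a part. *Pglyrp3* was lower with sh3, with a log2 fold change of -1.24 ± 0.51, and *Cst6* was higher, with 0.86 ± 0.35, both with an edgeR FDR of 0.7872. These were the genes below an unadjusted P of 0.05, where 3.53% of all genes were lower and 2.24% higher. *Tgm1* and *Pglyrp3* were lower in every sh3 tumor than in every sh2 tumor, as in 4.61% of all genes, and *Krt10* and *Lypd3* were higher in each, as in 5.53% of all genes. *Tgm1* had a log2 fold change of -1.23 ± 0.59, and -0.76 without sh3 replicate 1. *Krt10* had 0.49 ± 0.27 and *Lypd3* 0.57 ± 0.39. The log2 fold change was below 0 in 8 of the 12 (47.2% of all genes), with a median of -0.09 against 0.02 for all genes.

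The remaining log2 fold changes against the control had no unadjusted P under 0.05 in edgeR. *Lor* had log2 fold changes of 0.28 ± 0.50 with sh2 and 0.20 ± 0.50 with sh3 against the control, *Asprv1* of 0.15 ± 0.54 and -0.57 ± 0.54, and *Aloxe3* of -0.50 ± 0.75 and -0.23 ± 0.75. *Cdsn* had 0.66 ± 0.99 and 0.57 ± 0.99, *Sbsn* -0.76 ± 0.70 and -0.82 ± 0.71, and *Dmkn* 1.07 ± 0.85 and 0.30 ± 0.85. The sh2 value of *Dmkn* rested on sh2 replicate 2 and was 0.0347 without that tumor, and that of *Cdsn* was 0.0906 without sh2 replicate 3. *Sprr1a* had -0.66 ± 0.60 and -0.87 ± 0.60. *Tgm1* with sh2 had 0.12 ± 0.65, *Krt10* with sh2 0.01 ± 0.30, *Cst6* with sh3 -0.07 ± 0.38, and *Lypd3* -0.81 ± 0.43 with sh2 and -0.23 ± 0.43 with sh3. The sh2 value of *Lypd3* was -0.13 without control replicate 2, -0.53 without sh2 replicate 2 and -1.27 without control replicate 3.

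The 48 genes that the filter removed together had 19 and 34 counts in the 2 control tumors, 59, 96 and 20 with sh2, and 18, 17 and 10 with sh3. They were most frequent in sh2 replicate 2 and in sh2 replicate 1. After control replicate 1, sh2 replicate 2 also had the most *Krt5*, 104 counts. In raw counts the sum of the 48 genes was higher in each sh2 tumor than in each sh3 tumor. In CPM the groups overlapped, with 0.834 in sh2 replicate 3 and 0.864 in sh3 replicate 2. Of the 23 that had a single highest raw count among the 8 tumors, 11 had it in sh2 replicate 2 and 7 in sh2 replicate 1. The share of all genes highest in these tumors was not counted. Without the filter, edgeR tested 44 genes of the list, 32 of them from these 48, and the other 16 had no count in the 8 tumors. None of the 44 passed an FDR of 0.05 in any comparison. At an unadjusted P under 0.05, *Cst6* alone passed in sh2 against control and *Pglyrp3* alone in sh3 against control, with 525 and 644 of all 19301 genes.

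In sh3 against sh2 without the filter, 5 of the 44 were lower at an unadjusted P under 0.05, where 2.83% of all genes were, and 1, *Cst6*, was higher, where 2.23% were. The lower genes were *Pglyrp3* and 4 that the filter had removed, *Krt1*, *Dsc1*, *Krtdap* and *Calm4*, and the lowest edgeR FDR among the 44 was 0.8375. *Dsc1* had 2, 4 and 2 counts with sh2 and none with sh3, and *Krt1* had 5, 9 and 2 against 0, 1 and 0, so that neither overlapped. Among the genes left by the filter, 4.61% were lower in every sh3 tumor than in every sh2 tumor. That share was not counted without the filter. *Krtdap* had 5, 31 and 1 counts with sh2 against 0, 0 and 3 with sh3, and *Calm4* had 7, 9 and 0 against 0, 0 and 1, so that both overlapped. DESeq2 without the filter had *Tgm1*, *Krtdap* and *Pglyrp3* lower and *Cst6* higher at that level, 3 and 1 of the 44. Of all 19243 genes, 3.38% were lower and 2.83% higher there. All sh3 counts of these 4 removed genes were at or below 3, the limit that a count of 0 allows, so no fold is given for them.

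Putting control replicate 1 back changed the comparisons with the control. With all 9 tumors, the 12 genes were below 0 in both comparisons with the control, with medians of -1.74 for sh2 and -2.16 for sh3, and 45.1% to 48.2% of all 14725 genes were below 0. *Krt10* went from 0.01 to -2.64 with sh2 and from 0.51 to -2.14 with sh3, *Lor* from 0.28 to -2.12 and from 0.20 to -2.18, and *Dmkn* from 1.07 to -3.63 and from 0.30 to -4.38. No gene passed an FDR of 0.05 with all 9 tumors in edgeR. At an unadjusted P under 0.05 there were 7 of the 12 with sh2 (1.87% of all genes were lower at that level) and 6 with sh3 (3.12% of all genes), and these describe the tumor that the list was partly chosen on. In sh3 against sh2, which does not hold that tumor, the median was -0.09 without it and -0.07 with it in the fit.

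**Figure D5:**
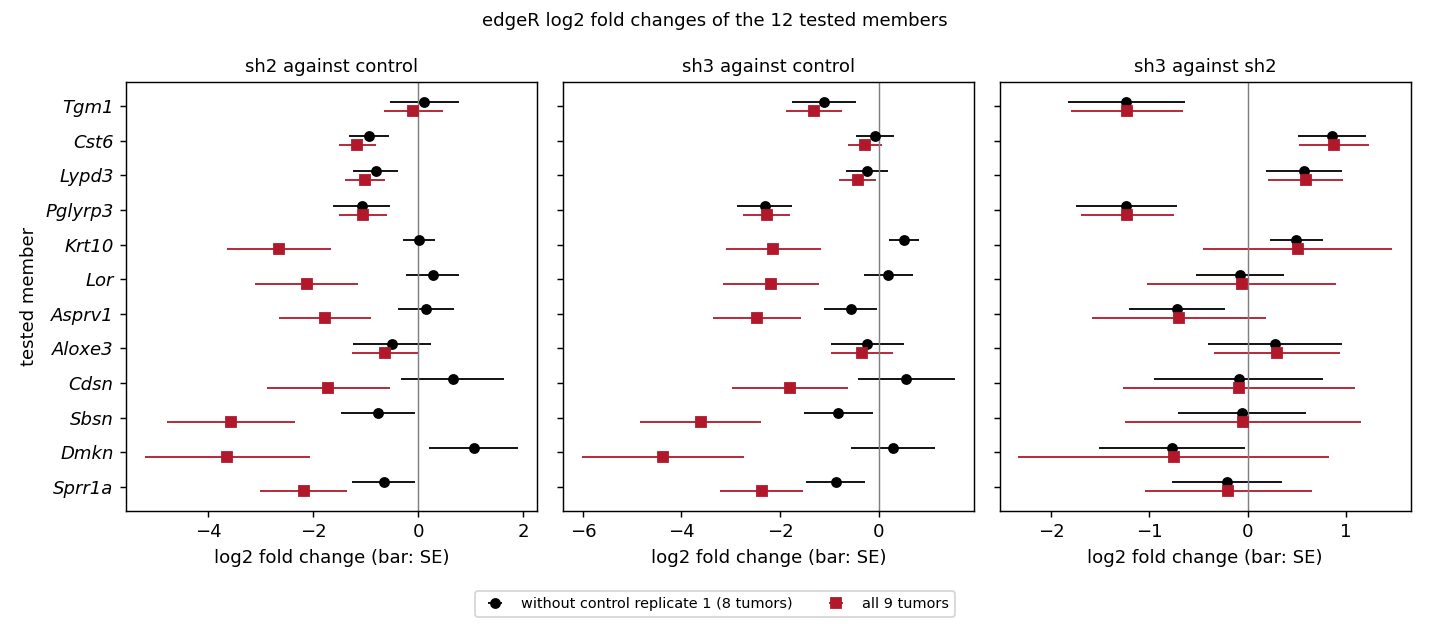
Log2 fold changes with SE bars of the 12 tested genes from edgeR in each of the 3 comparisons, from the 8 tumors without control replicate 1 (black circles) and from all 9 (red squares). In both comparisons with the control the red squares are all below 0, down to -4.38 for *Dmkn*, while the black circles scatter about 0; in sh3 against sh2 both lie close together.

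Other genes of the pathway gave no call either. Of the 22 regulators, 9 lipid barrier genes, 9 other proteases and inhibitors, 14 desmosome and crosslinking genes, 12 other genes of the complex and the S100 family, 10 basal and 11 squamous carcinoma genes tested, none passed an FDR of 0.05 by edgeR in any comparison. The most abundant were *Nr3c1*, the glucocorticoid receptor, and *Ppard* among regulators, *Asah1* among lipid enzymes, *Ctsd* and *Ctsl* among proteases, *Jup* and *Ppl* among desmosome and crosslinking genes, and *S100a6* and *S100a10* among the other genes of the complex and the S100 family. In sh3 against sh2 *Ppl*, periplakin, had a log2 fold change of -0.90 ± 0.26, an edgeR FDR of 0.7872, and 5 of the 14 desmosome and crosslinking genes were lower at an unadjusted P under 0.05, where 3.53% of all genes were. The median of that list was -0.45. *Krt5* had log2 fold changes of 2.31 ± 0.85 with sh2 and -1.69 ± 0.89 with sh3 against the control, and -3.998 ± 0.83 in sh3 against sh2, with edgeR FDRs of 0.9993, 0.9999 and 0.7872. Its counts were 11 and 14 in control replicates 2 and 3, 20, 104 and 45 with sh2, and 2, 6 and 2 with sh3. The values with sh3 thus lie near the limit of 3 counts. *Krt14* had -0.46 ± 0.87 and -0.19 ± 0.87, *Trp63* -0.19 ± 0.95 and 0.01 ± 0.95, and *Sox2* -0.45 ± 0.36 and 0.16 ± 0.37. The 10 muscle genes had a median log2 fold change of -4.80 with sh2 and -1.83 with sh3 against the control, none with an edgeR FDR under 0.05, and their sum ran from 19.8 to 3403 CPM over the 3 control tumors. The part of muscle tissue in the comparisons was not tested.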

How the data were processed

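Poly-A RNA of 9 KLN205 tumors was sequenced from stranded libraries (TruSeq). According to the methods and the submitters' processing notes, reads were checked with FastQC, aligned with STAR 2.5.3a to mm10 and assigned to genes with featureCounts, whose strand and multi-mapping settings are not given in the sources used here. The authors deposited the raw counts per gene, which were used for all tests. They also deposited a CPM signal scaled by TMM factors, which differed from the CPM computed here by at most 0.47%. The TPM values deposited by the authors, which correct for gene length, were used only for the order of levels between genes. The remaining columns hold the authors' own comparisons of each shRNA with the control, namely log2 fold changes, p-values with FDR and a likelihood ratio score, deposited in the same table, and were not used.

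Groups came from the titles of the samples, which call the replicates biological. The counts went into edgeR 4.0.16 under R 4.3.3 (filterByExpr by group, TMM, 1 coefficient per group, robust quasi-likelihood fit) over all genes tested, with Benjamini-Hochberg adjustment and an FDR threshold of 0.05. Because control replicate 1 had a part in choosing the genes, tests used the other 8 tumors, and fits with all 9 are a description. The members, the marker lists and these tests were chosen with earlier results of these data known. Counts could be given for every member with at least 10 counts in a tumor, and fold changes for the 12 with the highest mean CPM in the 8 tumors, which were the 12 tested. Of the other lists, the 2 genes with the highest mean CPM and *Krt5*, *Krt14*, *Trp63* and *Sox2* could be named (1 of these genes is not reported here), and further genes named, in the plot too, were chosen after their values were seen. Fits were tested on simulated counts of the 8 tumors. A log2 fold change of 1 passed the FDR in 0% of changed genes against the control and in 2.5% in sh3 against sh2. Calls of 0 thus do not exclude changes of this size. A log2 fold change of 2 was recovered in 65.5% to 71.5%. Samples with equal replicate numbers were checked for pairing by correlating their deviations from the group means: 7 pairs gave -0.207 to 0.216, so the numbers were taken not to pair the tumors. Alternatives were DESeq2 1.42.0, its size factors in edgeR, edgeR's likelihood ratio test, other filters, fits of only the groups compared, a replicate block, and fits without each of the 8 tumors. Genes were located in RefSeq tables of GRCm38.p6, where all 60 symbols matched, and 50-base words were compared over the GENCODE transcripts. Tables and plots were made with Python 3.11.15, pandas 2.3.3, numpy 2.4.6 and matplotlib 3.10.9.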

Additional observations from a re-analysis of the deposited data

How the results depend on the processing

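No gene of the list passed the FDR of 0.05 under any alternative, and of 564 values of the 36 named log2 fold changes under alternatives, 522 kept their direction and side of the threshold and 42 changed sign, 28 of these when 1 of the 8 tumors was left out. Over all genes, DESeq2 called 1 gene in sh2 against control, 4 in sh3 against control and 43 in sh3 against sh2, and edgeR's likelihood ratio test called 2, 1 and 0, against 0 in each by the quasi-likelihood test. The cause was not tested. With all 9 tumors the median of the 12 genes was -1.739 for sh2 and -2.158 for sh3 against the control. In that fit sh2 against control turned to -0.0904 for *Tgm1*, -2.64 for *Krt10*, -2.12 for *Lor*, -1.77 for *Asprv1*, -1.71 for *Cdsn* and -3.63 for *Dmkn*, and sh3 against control to -2.14 for *Krt10*, -2.18 for *Lor*, -1.79 for *Cdsn* and -4.38 for *Dmkn*. With a replicate block, although the numbers did not pair the tumors, no gene passed in any comparison, the medians were -0.52 for sh2, -0.65 for sh3 and -0.23 for sh3 against sh2, and the signs turned for *Asprv1* (-0.17) and *Cdsn* (-0.19) with sh2, *Cdsn* (-0.47) with sh3 and *Sbsn* (0.0165) in sh3 against sh2.

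Leaving out each of the 8 tumors in turn, which leaves 1 control tumor in 2 of the fits, so that it is assumed to vary like the other groups, gave 0 genes past the threshold in each comparison. The medians ran from -0.29 to -0.15 for sh2, from -0.49 to -0.08 for sh3, and from -0.62 (without sh3 replicate 1) to 0.0219 for sh3 against sh2. In sh2 against control the ranges that crossed 0 were -0.28 to 0.67 for *Tgm1*, -0.0591 to 0.0899 for *Krt10*, -0.18 to 0.58 for *Asprv1* and -0.90 to 0.0534 for *Aloxe3*. In sh3 against control they were -0.42 to 0.18 for *Cst6*, -0.70 to 0.45 for *Lypd3*, -0.25 to 0.53 for *Lor*, -0.95 to 0.33 for *Aloxe3*, -0.21 to 1.17 for *Cdsn* and -0.0341 to 0.705 for *Dmkn*. In sh3 against sh2 they were -0.53 to 0.25 for *Lor*, -0.44 to 0.72 for *Aloxe3*, -0.87 to 0.47 for *Cdsn*, -0.47 to 0.74 for *Sbsn*, -1.15 to 0.26 for *Dmkn* and -0.80 to 0.0810 for *Sprr1a*. With at least 10 counts in every tumor the median of sh3 against sh2 was 0.12 over fewer genes. Larger moves of 1 sign were -1.27 to -0.13 for *Lypd3*, 0.0347 to 1.48 for *Dmkn* and 0.0906 to 1.26 for *Cdsn* with sh2, and -1.58 to -0.56 for *Tgm1* with sh3. At most 3 counts in each of the 8 tumors were found for 35 of the 60 genes, which limits what single genes can show. Without the filter none of the 44 genes tested passed an FDR of 0.05, and 1, 1 and 6 had an unadjusted P under 0.05 in sh2 against control, sh3 against control and sh3 against sh2.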
